A study of Mus musculus with 12 samples.

Results

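MicroRNA (miRNA) genes that are made by routes without Drosha or without Dicer were described in small RNA libraries of mouse embryonic stem cells (ESCs). The members were chosen by name. They were Mir320 and Mir484, the mirtrons Mir877, Mir702 and Mir1224, and Mir451, which is 6 of the 32101 features in the table and 6 of its 1577 annotated miRNA features. Each of the 6 had at least 1 read in at least 1 of 12 libraries. By the genotype label, 6 of the libraries were wild type (WT), 2 were Dnmt1 KO and the other 4 were Dicer/Dnmt1 KO. Numbers in the titles (3 different ones in WT, 2 in Dicer/Dnmt1 KO) are taken here as cultures, which the labels do not name. The titles of the Dnmt1 KO libraries carry only the letters A and B, and these libraries are treated as 1 culture. The labels give E14, an established mouse ESC line, as the background of all 12, and the WT pair 2A and 2B carries the title E14 2. Dnmt1 encodes the enzyme that copies DNA methylation at replication, and both knockout groups are labelled as knockouts of it. In the study's methods Dnmt1 was deleted in cultured cells of another mouse strain by an inducible Cre. For a small RNA comparison the study describes the WT as non-induced cells of its conditional Dicer and Dnmt1 line. The labels do not say which line each WT library came from. Genotype and line of origin may therefore be mixed in any comparison with WT, and they cannot be told apart here. In the study's methods the Dicer/Dnmt1 line was made from the Dnmt1 conditional line by genome editing. Dicer genotype, line and culture may therefore also be mixed in Dicer/Dnmt1 KO against Dnmt1 KO, and they cannot be told apart. The labels give no day after deletion, and they do not say whether libraries A and B of a culture were grown separately, so p-values measure only the spread between these libraries, which may be technical.

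A canonical miRNA is cut in steps, first in the nucleus by Drosha with its partner Dgcr8 out of a long transcript, then in the cytoplasm by Dicer out of the hairpin. The precursors of Mir320 and Mir484 are known as hairpins that are transcribed directly with a cap, need no Drosha and leave the nucleus through Xpo1, but are still cut by Dicer. Mirtrons are short introns that fold into a hairpin after splicing and debranching, which replaces the Drosha step and leaves the Dicer step. Mir451 is known for the reverse. Drosha frees its hairpin, which is too short for Dicer and is cut by the Argonaute protein Ago2, and it is abundant in red blood cell precursors.

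Of 6 members, 5 matched the RefSeq miRNA table (GRCm38.p6), and Mir320 is named only. The 5 hairpins were identical in RefSeq and in the genome build of the table, NCBIM37. The mirtron hairpins of Mir877 and Mir1224 are given first, because their ends are the ends of the intron (capitals, the GU and AG bases at the splice sites).
Mir877 hairpin: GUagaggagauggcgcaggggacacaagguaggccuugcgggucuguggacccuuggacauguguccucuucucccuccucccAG
Mir1224 hairpin: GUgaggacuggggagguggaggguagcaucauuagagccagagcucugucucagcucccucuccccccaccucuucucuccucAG

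In the hairpin of Mir702 the intron begins inside the annotated hairpin, at base 10 (capitals, the first bases of the intron).
Mir702 hairpin: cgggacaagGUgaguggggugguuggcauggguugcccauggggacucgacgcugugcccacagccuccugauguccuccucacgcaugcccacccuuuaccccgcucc

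The mature miR-451a (capitals) runs from base 17 to base 38 of its 72-base hairpin, through the loop, whereas miR-484 (capitals) lies in the first arm of its hairpin from base 5 to base 26 of 67.
Mir451 hairpin: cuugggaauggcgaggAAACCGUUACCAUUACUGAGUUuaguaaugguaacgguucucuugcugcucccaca
Mir484 hairpin: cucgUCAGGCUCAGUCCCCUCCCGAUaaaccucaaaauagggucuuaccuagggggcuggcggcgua

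The mature miRNAs are shown with the seed, bases 2 to 8 that pair with targets, in capitals.
miR-484: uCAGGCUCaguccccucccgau
miR-877-5p: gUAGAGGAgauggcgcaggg
miR-877-3p: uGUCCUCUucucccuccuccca
miR-702-5p: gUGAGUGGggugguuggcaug
miR-702-3p: uGCCCACCcuuuaccccgcucc
miR-1224-5p: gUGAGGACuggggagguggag
miR-1224-3p: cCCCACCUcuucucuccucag
miR-451a: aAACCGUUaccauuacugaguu

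The 8 mature sequences carry 8 different seeds, so no pair among them forms a seed family. They are 20 to 22 nt long and lie within the 20 to 24 nt that the authors kept. The mirtron arms on the 5p side start with the first base of the intron in all 3 mirtrons. The 3p arm ends with the last base of the intron in Mir1224, and in Mir877 it ends at base 84 of 85.

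In NCBIM37 coordinates, Mir877 (ENSMUSG00000077931.1) lies at chr17:36097675-36097759 on the minus strand and is exactly intron 12 of 22 of Abcf1, which encodes an ATP-binding protein of translation initiation. Mir1224 (ENSMUSG00000080669.1) lies at chr16:20604525-20604609 on the plus strand and is exactly intron 22 of 22 of Vwa5b2. Mir702 (ENSMUSG00000076240.1) lies at chr5:137467303-137467411 on the plus strand. It starts 9 bases before intron 13 of 18 of Plod3, a collagen-modifying enzyme, and ends 2 bases before that intron does. Mir320 (ENSMUSG00000065528.1) lies at chr14:70843317-70843398 on the plus strand, in no other feature, 38 bases from Polr3d, a subunit of RNA polymerase III on the opposite strand. Mir484 (ENSMUSG00000070074.1) lies at chr16:14159719-14159785 on the plus strand, 3582 bases from Nde1 and 351 bases from its nearest feature, 4921513D23Rik. Mir451 (ENSMUSG00000070065.1) lies at chr11:77886672-77886743 on the plus strand, 99 bases from Mir144.

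**Figure D1:**
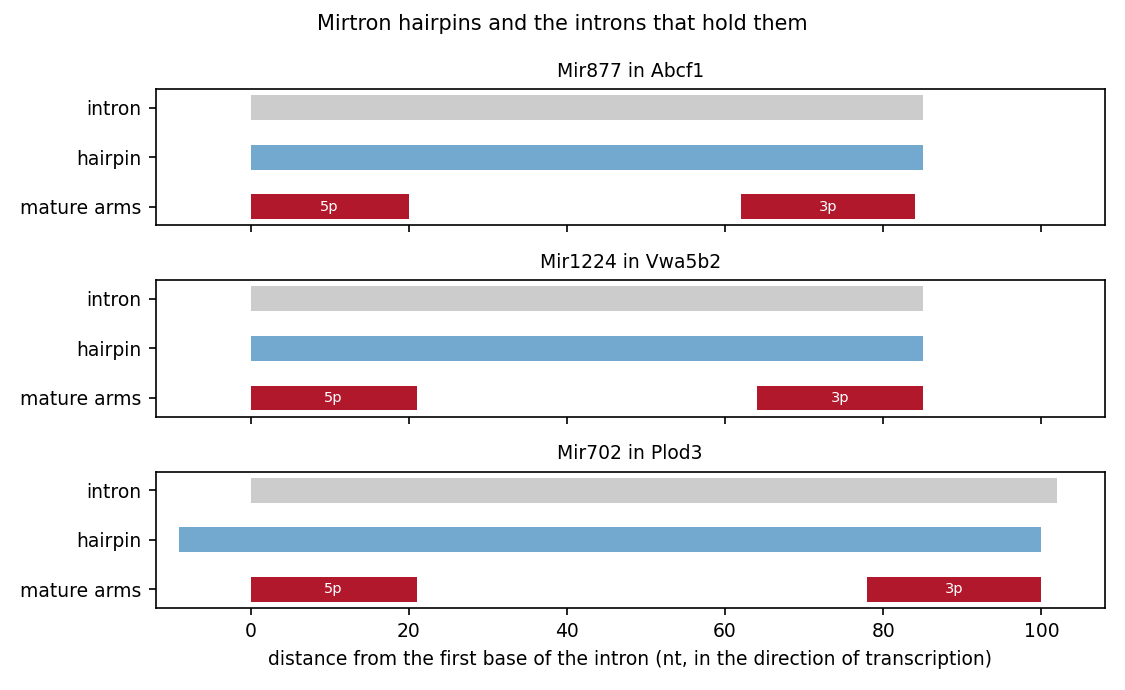
Positions of the intron (grey), annotated hairpin (blue) and mature arms (red) of the 3 mirtrons, in nt from the first base of the intron. The hairpins of Mir877 and Mir1224 cover their introns from end to end, and the hairpin of Mir702 starts 9 bases before its intron.

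Library reads ranged from 8710 (Dicer/Dnmt1 KO 1B) to 245184 (WT 1A). Levels are given as reads per 1000000 reads of the library (RPM), where 1 read was worth from 4.08 RPM in the deepest library to 114.8 RPM in the shallowest. A library with 0 reads of a member is compatible with up to 3 reads (1-sided 95% limit). The intervals given for counts above 0 are 2-sided. At 0 reads their upper end would be higher than the limit, 150.6 RPM in Dicer/Dnmt1 KO 1A and 423.5 RPM in 1B. The 3-read limit is 12.2 to 41.6 RPM in the WT libraries other than 2A, where it is 185.9 RPM. The Dnmt1 KO libraries have limits of 27.9 and 44.3 RPM. For Dicer/Dnmt1 KO the limits are 122.5 RPM (1A), 344.4 RPM (1B), 47.3 RPM (2A) and 19.9 RPM (2B). Intervals and limits cover counting error only. All 15 ESC markers looked for had reads over the 12 libraries pooled, but Mir302c and Mir367 were at 0 in both knockout groups and Pou5f1 was at 0 in Dicer/Dnmt1 KO. Reads of the targeted genes did not check the labels. Dicer1 had at most 3 reads in a library, and Dnmt1, with 8 and 9 reads in the 2 Dnmt1 KO libraries, stood at 70.2 RPM in WT, 100.9 in Dnmt1 KO and 109.8 in Dicer/Dnmt1 KO (group means). Over summed reads the order was another, with Dnmt1 at 81.3 RPM in WT, 97.0 in Dnmt1 KO and 56.6 in Dicer/Dnmt1 KO.

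In WT, Mir320 was the most abundant member and the other 5 were rare. Mir320 stood at 392.4 ± 220.7 RPM (SD, n = 6), Mir484 at 85.1 ± 41.7 RPM (SD, n = 6) and Mir877 at 74.7 ± 63.2 RPM (SD, n = 6). Mir451 followed with 11 ± 25 RPM (SD, n = 6), Mir702 with 3.23 ± 5.25 RPM (SD, n = 6) and Mir1224 with 1.16 ± 2.84 RPM (SD, n = 6). Per kilobase of hairpin the WT levels kept this order, from 4786 RPM per kb for Mir320, 1270 for Mir484 and 878.3 for Mir877 down to 152.8 for Mir451, 29.6 for Mir702 and 13.6 for Mir1224. Mir320 was ahead of Mir484 in 5 of 6 WT libraries, and both had 1 read in the other, WT 2A. Mir484 and Mir877 differed by less than their spread, and so did Mir451, Mir702 and Mir1224, whose reads summed to 2, 4 and 1 over the 6 WT libraries. The level of Mir451 came mostly from a single read in the shallow WT 2A, and without that library it was 0.816 RPM.

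**Figure D2:**
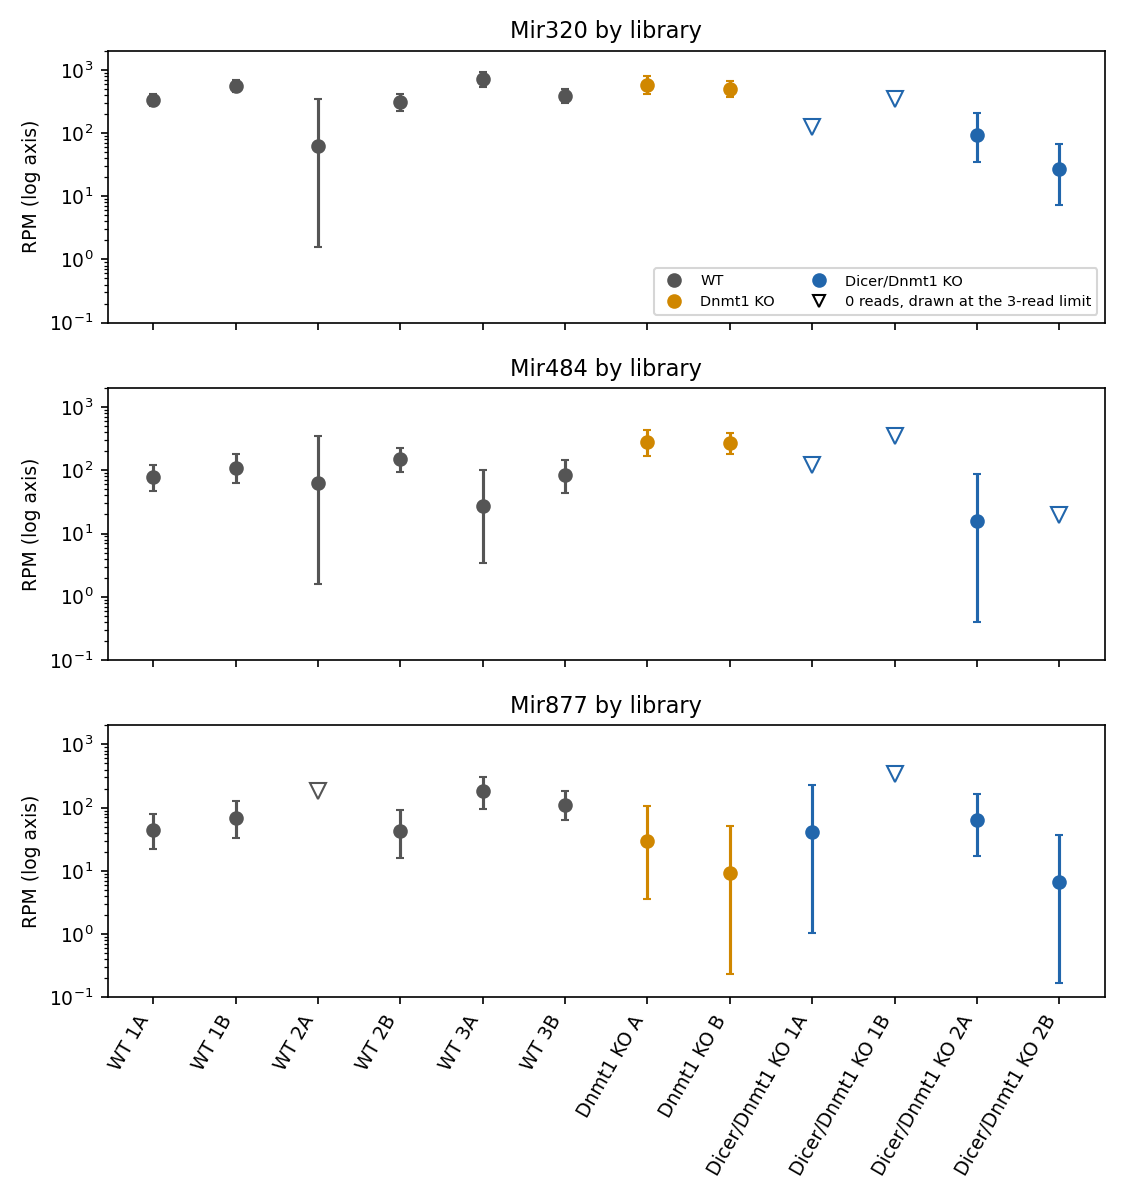
Levels of Mir320, Mir484 and Mir877 in RPM on a log axis in each of the 12 libraries, with exact 95% Poisson intervals (bars) from the reads. Open triangles stand for 0 reads and are drawn at the level of 3 reads, which in Dicer/Dnmt1 KO 1B is 344.4 RPM.

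Levels in Dicer/Dnmt1 KO were compared with those in WT and in Dnmt1 KO. These groups may also differ in line and culture, so a need of the members for Dicer was not tested. Mir320 and Mir484, the only members that passed the filter on low values (at least 111.3 RPM in 2 libraries and 15 reads in all), were both lower in Dicer/Dnmt1 KO than in WT and than in Dnmt1 KO. By the same fit 130 of 683 features, or 19.0%, were called lower against WT, and 148 of 683, or 21.7%, were called lower against Dnmt1 KO. Among the 133 miRNA features tested, 81 were called lower and 16 higher against WT, with a median fold change of -2.75 on the log2(RPM + 10) scale against -0.09 over all features. With libraries scaled by their reads alone, calls against WT split into 84 higher and 116 lower in place of 35 and 130, and calls against Dnmt1 KO into 24 higher and 127 lower in place of 8 and 148. The fold changes of both members kept their direction and their call under every scaling tried.

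Mir320 is a Dicer substrate whose capped hairpin skips Drosha. Its reads numbered 83 (338.5 RPM) in WT 1A, 80 (551.6 RPM) in 1B, 1 (62.0 RPM) in 2A, 43 (306.7 RPM) in 2B, 51 (706.7 RPM) in 3A and 56 (389.1 RPM) in 3B. They numbered 39 (576.3 RPM) in Dnmt1 KO A and 54 (501.8 RPM) in B. Dicer/Dnmt1 KO 1A and 1B had 0 reads, 2A had 6 (94.6 RPM) and 2B had 4 (26.5 RPM). Dicer/Dnmt1 KO 2A and 2B lay under every WT and Dnmt1 KO library, except that 2A lay above WT 2A with its 1 read. The 95% interval of WT 2A was 1.57 to 345.2 RPM, so neither library can be ordered against it. The limits of 1A and 1B (122.5 and 344.4 RPM) lay under both Dnmt1 KO libraries. They lay above 1 and 3 of the WT values, so 1A and 1B could not be placed under all of WT. In RPM, before the scaling used in the fit, both Dnmt1 KO libraries lay inside the range of WT.

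Mir320 fell by 4.11 on the log2(RPM + 10) scale in Dicer/Dnmt1 KO against WT (SE 0.61, limma adjusted p 0.000131), and it fell by 5.02 against Dnmt1 KO (SE 0.82, limma adjusted p 0.000326). The libraries Dicer/Dnmt1 KO 1A and 1B, with 0 reads of Mir320, were too shallow to place it below 122.5 and 344.4 RPM, while the fit sets a count of 0 at the pseudocount of 10 RPM. Without both libraries, Mir320 fell by 2.90 against WT (limma adjusted p 0.00291). In the fit without a filter on low values, the limma adjusted p of Mir320 was 0.000291 against WT and 0.00183 against Dnmt1 KO. Over summed reads, 10 of 247330 in Dicer/Dnmt1 KO against 314 of 762641 in WT, Mir320 was 10.2-fold lower (95% interval 5.46 to 21.4, counting error). In Dnmt1 KO against WT, Mir320 differed by 0.91 (SE 0.77, limma adjusted p 0.599, 95% interval -0.76 to 2.58) and was not called. Over summed reads it was 1.29-fold higher in Dnmt1 KO than in WT (95% interval 1.01 to 1.63, counting error).

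Mir484 shares the capped, Drosha-free route. Its reads numbered 19 (77.5 RPM) in WT 1A, 16 (110.3 RPM) in 1B, 1 (62.0 RPM) in 2A, 21 (149.8 RPM) in 2B, 2 (27.7 RPM) in 3A and 12 (83.4 RPM) in 3B. They numbered 19 (280.7 RPM) in Dnmt1 KO A and 29 (269.5 RPM) in B. Dicer/Dnmt1 KO 2A had 1 read (15.8 RPM), and 1A, 1B and 2B had 0. As point values, Dicer/Dnmt1 KO 2A lay under every WT and Dnmt1 KO library, as did the 3-read limit of 2B (19.9 RPM). The 95% interval of 2A (0.399 to 87.8 RPM) overlapped those of WT 2A (1.57 to 345.2 RPM) and WT 3A (3.36 to 100.1 RPM). The order against these WT libraries, with 1 and 2 reads, is therefore open. Both Dnmt1 KO libraries lay above all WT libraries as point values. The 3-read limit of Dicer/Dnmt1 KO 1A (122.5 RPM) lay under both Dnmt1 KO libraries and WT 2B, but above the other WT libraries. Dicer/Dnmt1 KO 1B could not be placed, since its limit (344.4 RPM) is above every value of the other groups. Mir484 passed the filter through both Dnmt1 KO libraries and 1 of 6 WT libraries. It could not have passed without the Dnmt1 KO libraries, and it reached the filter in 0 of 4 Dicer/Dnmt1 KO libraries. Its p-values in comparisons with either knockout group are therefore not independent of the filter.

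Mir484 fell by 3.11 in Dicer/Dnmt1 KO against WT (SE 0.53, limma adjusted p 0.00043), and it fell by 4.99 against Dnmt1 KO (SE 0.71, limma adjusted p 0.000119). Without Dicer/Dnmt1 KO 1A and 1B it fell by 2.74 against WT (limma adjusted p 0.0125). In the fit without a filter on low values, its limma adjusted p was 0.0096 against WT and 0.000437 against Dnmt1 KO. Over summed reads, 1 in Dicer/Dnmt1 KO against 71 in WT gave a 23.0-fold lower level, with a wide 95% interval of 4.0 to 922.1. The pseudocount set the size of the difference from WT, which was -5.65 for Mir484 and -5.88 for Mir320 with a pseudocount of 1 RPM, and -1.49 and -2.67 with 50 RPM.

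In Dnmt1 KO against WT, neither of the 2 tested members was called by limma, where 47 of 683 features, or 6.88%, were called in either direction. At an unadjusted p under 0.05 the count was 1 of 2, and with voom weights it was also 1, Mir484 in both cases. Mir484 differed by 1.88 (SE 0.67, limma adjusted p 0.131) and was called without WT 2B (2.42, limma adjusted p 0.0225), without both E14 2 libraries (2.17, limma adjusted p 0.0257), with voom weights (2.03, limma adjusted p 0.0414) and with a pseudocount of 50 RPM (1.5, limma adjusted p 0.0281). Mir484 was tested in these fits only because of the Dnmt1 KO libraries, the group where it was higher, so these calls are not independent of the filter. Without a filter its limma adjusted p was 0.771. The 133 miRNA features tested had a median of 1.40 in this comparison, 28 called higher and 1 lower, and 89 of them had a lower value than Mir484. The summed level of markers of fibroblasts, which can be present as feeder cells, was higher in Dnmt1 KO than in WT. In Dicer/Dnmt1 KO the range of that sum overlapped the range in WT. In Dnmt1 KO against WT, Mir21, Mir22 and Mir143 were called higher, and Mir10b was not called (1.23, limma adjusted p 0.569). Of 11 such markers 9 had reads, mostly of Mir21, Mir22, Mir143 and Mir10b, and their summed level ranged from 9238 to 14957 RPM over the WT libraries. It was 39348 and 47980 RPM with Dnmt1 KO, and 11155 to 35395 RPM with Dicer/Dnmt1 KO. Of the defining markers, Mir199a-1 was at 0 in all libraries, and Mir199a-2, Col1a1 and Col1a2 were at 0 in all WT and Dnmt1 KO libraries. The part of other cells in the level of Mir484 was not tested.

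**Figure D3:**
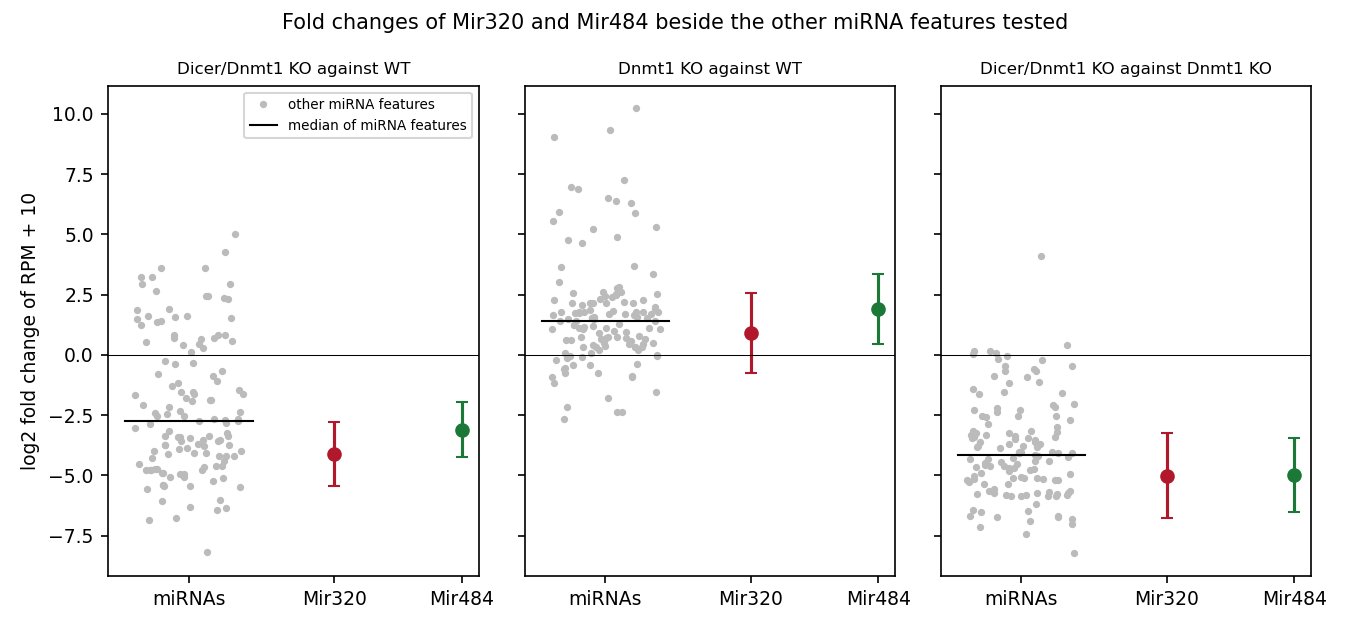
Fold changes of Mir320 (red) and Mir484 (green) on the log2(RPM + 10) scale with 95% intervals, beside the other miRNA features tested (grey points) and the median of all 133 (black line), for the 3 comparisons. Both members lie under 0 in both comparisons that contain Dicer/Dnmt1 KO, with values below the median of the miRNA features.

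Mir320 and Mir484 were then set against a canonical cluster that needs both Drosha and Dicer, the Mir290 cluster (Mir290, Mir291a, Mir291b, Mir292, Mir293, Mir294 and Mir295), which makes the leading miRNAs of ESCs. Summed over the cluster, its level was 38.1-fold lower in Dicer/Dnmt1 KO than in WT (95% interval 34.8 to 41.8, counting error). Per 1000 reads of the cluster, Mir320 had 5.18, 6.73, 2.2, 5.54, 7.72 and 4.55 reads in WT 1A to 3B. The ratio was 5.81 and 9.02 for the pair of Dnmt1 KO libraries, and 33.9 and 22.1 for Dicer/Dnmt1 KO 2A and 2B. The cluster had so few reads there that most features were called higher relative to it against WT (613 of 683), so nothing particular to Mir320 is read from these ratios. In 1A and 1B it had 0 reads beside 85 and 26 reads of the cluster, where 3 reads would be 35.3 and 115.4 per 1000. Mir484 had 0.303 to 2.71 reads per 1000 in WT (median 1.27), 2.83 and 4.85 in Dnmt1 KO, and 5.65 from its 1 read in Dicer/Dnmt1 KO 2A.

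**Figure D4:**
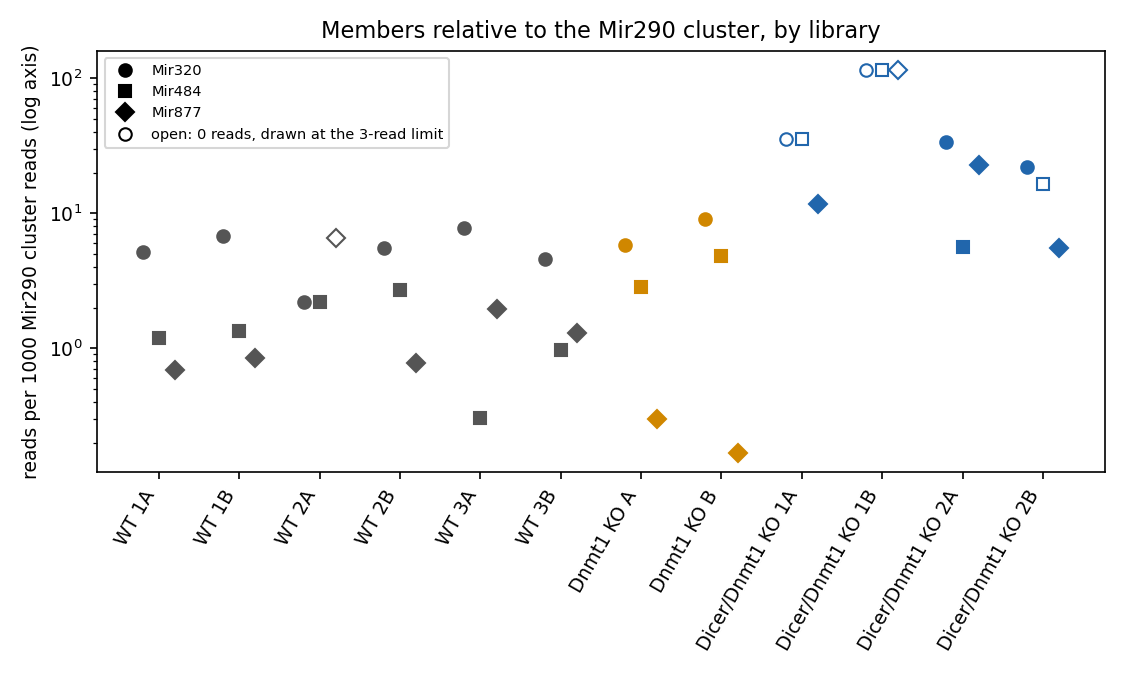
Reads of Mir320 (circles), Mir484 (squares) and Mir877 (diamonds) per 1000 reads of the Mir290 cluster in each library, on a log axis, with open symbols for 0 reads drawn at 3 reads. Mir320 stands at 22.1 and 33.9 in Dicer/Dnmt1 KO 2B and 2A and at most at 7.72 in WT.

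In the test relative to the cluster in Dicer/Dnmt1 KO against WT, the difference was 1.93 on the log2 scale for Mir484 (SE 0.63, limma adjusted p 0.00991), which was called, and 0.97 for Mir320 (SE 0.74, limma adjusted p 0.215, 95% interval -0.60 to 2.55). From its WT level Mir484 can change by no more than -3.12 on the log2(RPM + 10) scale, with 0 reads in every library, while the cluster changed by -4.70. So the call does not show that Mir484 fell less than the cluster, and the interval of its summed-read fold, 4.0 to 922.1, includes the 38.1 of the cluster. The count of 1 of 2 was 0 with A and B summed (Mir484 1.76, limma adjusted p 0.0625) and with all other Mir features as reference (0.24, limma adjusted p 0.712). It stands beside a background of 617 of 683 features, or 90.3%, called in either direction, while 130 of 683 were called lower without the cluster as reference. Among the 133 miRNA features 83 were called higher than the cluster. Both values rest on how a count of 0 is written. Without Dicer/Dnmt1 KO 1A and 1B both members were called (2.69 for Mir320, limma adjusted p 0.000399, and 2.67 for Mir484, limma adjusted p 0.00316), without 1A alone Mir320 was called (1.58, limma adjusted p 0.0495), and with a pseudocount of 1 RPM both turned below 0 (-0.76 and -0.53) and neither was called.

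Against Dnmt1 KO, the difference of Dicer/Dnmt1 KO from the cluster was 0.47 for Mir320 (SE 0.99, limma adjusted p 0.671) and 0.44 for Mir484 (SE 0.85, limma adjusted p 0.645), with 83.3% of features called in either direction. In Dnmt1 KO against WT it was 0.51 for Mir320 (SE 0.93, limma adjusted p 0.814) and 1.49 for Mir484 (SE 0.80, limma adjusted p 0.374), with 3.66% of features called. By limma neither member was called in these comparisons, also at an unadjusted p under 0.05 (0 of 2 in each). Against Dnmt1 KO, however, Mir320 was called without Dicer/Dnmt1 KO 1A and 1B (2.19, limma adjusted p 0.00822), both members were called with a pseudocount of 50 RPM (1.89 for Mir320, limma adjusted p 0.00859, and 2.30 for Mir484, limma adjusted p 0.0026), and both were below 0 with 1 RPM (-1.30 and -2.16). No other tool was run on them.

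Mir877, the mirtron of Abcf1, was the only mirtron with more than 4 reads. Its reads numbered 11 (44.9 RPM) in WT 1A, 10 (69.0 RPM) in 1B, 0 in 2A, 6 (42.8 RPM) in 2B, 13 (180.1 RPM) in 3A and 16 (111.2 RPM) in 3B. They numbered 2 (29.6 RPM) in Dnmt1 KO A and 1 (9.29 RPM) in B. Dicer/Dnmt1 KO 1A had 1 read (40.8 RPM), 1B had 0, 2A had 4 (63.1 RPM) and 2B had 1 (6.64 RPM). As point values from 2 and 1 reads, the Dnmt1 KO libraries lay under 5 of 6 WT libraries, and Dicer/Dnmt1 KO overlapped both other groups.

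Mir877 missed the filter by little, with 111.2 RPM in its second highest library, and its fold changes come from the fit over all 14232 features with a read. There it differed by -1.44 in Dicer/Dnmt1 KO against WT (SE 0.71, limma adjusted p 0.743, unadjusted p 0.0433), by -0.91 in Dnmt1 KO against WT (SE 0.90, limma adjusted p 0.832) and by -0.53 in Dicer/Dnmt1 KO against Dnmt1 KO (SE 0.96, limma adjusted p 1). None of these was called by limma, also with voom weights, beside 0.998%, 0.429% and 1.23% of features called in either direction. Over summed reads Mir877 was 3.03-fold lower in Dicer/Dnmt1 KO than in WT (95% interval 1.31 to 8.60, counting error) and 4.29-fold lower in Dnmt1 KO than in WT (95% interval 1.39 to 21.4, counting error). These intervals leave out the spread between libraries, which was 63.2 RPM (SD) in WT. Per 1000 reads of the Mir290 cluster, Mir877 had 0 to 1.97 reads in WT and 0.298 and 0.167 in Dnmt1 KO. In Dicer/Dnmt1 KO the ratio was 11.8 for 1A, 22.6 for 2A and 5.52 for 2B, and 1B had 0 reads. These ratios come from 1, 4 and 1 reads, and since a single read already gives 5.52 or more there, no order of the groups is read from them.

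**Figure D5:**
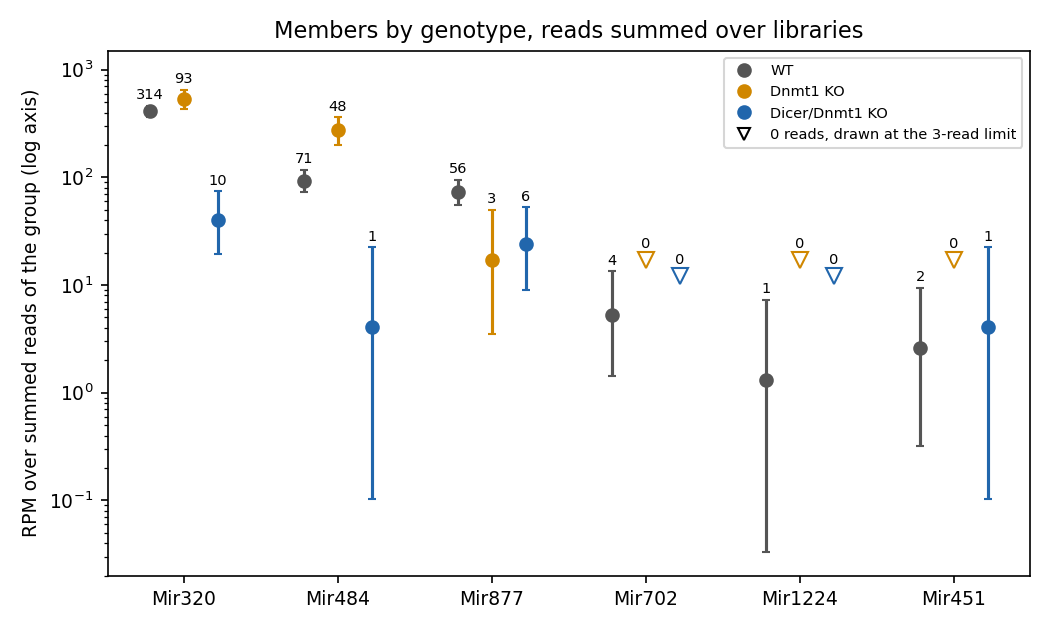
Levels of the 6 members by genotype on a log axis, over the summed reads of each group, with exact 95% Poisson intervals and the number of reads above each point. Open triangles stand for 0 reads in a group and are drawn at 3 reads, which is 17.1 RPM in Dnmt1 KO and 12.1 RPM in Dicer/Dnmt1 KO.

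The mirtrons Mir702 and Mir1224 were near the limit of detection. Mir702 had 3 reads in WT 1A and 1 in WT 2B, and 0 reads in the other 10 libraries. Mir1224 had 1 read, in WT 3B, and 0 reads in the other 11 libraries. Over summed reads Mir702 had 5.24 RPM in WT (95% interval 1.43 to 13.4) and Mir1224 had 1.31 RPM (95% interval 0.0332 to 7.31). For both, 0 reads allow up to 17.1 RPM over the Dnmt1 KO libraries and up to 12.1 RPM over the Dicer/Dnmt1 KO libraries. These limits are above the WT levels, so a fall in the knockout groups was not detectable at this depth.

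Mir451, whose last cut needs Ago2 and no Dicer, had 3 reads in all. WT 1A, WT 2A and Dicer/Dnmt1 KO 2A had 1 read each and the other 9 libraries had 0. Over summed reads the level was 2.62 RPM in WT (95% interval 0.318 to 9.47) and 4.04 RPM in Dicer/Dnmt1 KO (95% interval 0.102 to 22.5), a ratio of 1.54 with a 95% interval of 0.0261 to 29.6. In Dnmt1 KO 0 reads allow up to 17.1 RPM. Mir144, its neighbour in the same erythroid cluster and a canonical miRNA, had 0 reads in all 12 libraries. Of 6 erythroid markers, 5 (Mir144, Hbb-b1, Hbb-b2, Hba-a1 and Hba-a2) were at 0 in every library, and Mir486 had 5 reads, all in WT. Whether Mir451 keeps its level without Dicer could not be tested with 3 reads.

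The host genes of the mirtrons carried the same reads, because a read inside an intronic hairpin was counted for both features. Of 74 reads of Abcf1, 65 lay in Mir877, which was 56 of 62 in WT, 3 of 5 in Dnmt1 KO and 6 of 7 in Dicer/Dnmt1 KO. The 9 reads outside the hairpin were 6, 2 and 1. Abcf1 passed the filter and differed by -1.47 in Dicer/Dnmt1 KO against WT (SE 0.78, limma adjusted p 0.221), a value that is not independent of Mir877. Plod3 had 9 reads, 4 of them in Mir702, and Vwa5b2 had 3 reads, 1 of them in Mir1224. Beside the Drosha-free members, Polr3d had 2 reads and Nde1 had 3, against 417 for Mir320 and 120 for Mir484, and no read of either neighbour can be a read of the hairpin.

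The tested features with the profile most like that of Mir320 over the 12 libraries were Mir106b (Pearson r 0.987), Ift74 (0.981) and Mir872 (0.981), on the log2(RPM + 10) scale and out of 680 features. Ift74 contains Mir872 and shares its reads. For Mir484 they were Egfl7 (0.972), Mir126 (0.972) and Mir467c (0.972). Egfl7 contains Mir126, and each of the pair had 243 reads. These correlations have no test, and all features share the libraries, their depth and the same libraries at or near 0.

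Of 14 genes of the miRNA pathway that were looked for, 13 were in the table, 12 had a read, and 1, Dnmt1, which was listed with them as the targeted gene, passed the filter. These reads are 20 to 24 nt pieces of the messages and measure neither the messages nor the proteins. The groups differ in depth, with 762641 reads in WT, 175285 in Dnmt1 KO and 247330 in Dicer/Dnmt1 KO. The read counts of these genes therefore give no order of the groups. Xpo1, the exporter of capped hairpins such as Mir320, had 38 reads in WT, 1 in Dnmt1 KO and 13 in Dicer/Dnmt1 KO. Over summed reads this was 49.8, 5.70 and 52.6 RPM. Xpo5, the exporter of canonical hairpins, had 13, 1 and 3. Dgcr8, the partner of Drosha, had 8, 0 and 4, and Eif2c2, which encodes Ago2, had 14, 2 and 2. Dbr1, which opens the lariats that release mirtrons, had 1 read, in WT, and Parn, which trims miR-451, had 4, 2 and 1. Tarbp2, a partner of Dicer, had 0 reads in all 12 libraries.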

How the data were processed

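The authors made small RNA libraries, trimmed the reads (Trim Galore 0.3.5), kept 20 to 24 nt, mapped them to NCBIM37 (Bowtie2 2.2.6) and counted overlaps with annotated features, per the labels and methods. The handling of multiply mapped reads is not given in the sources used here. The deposited values are log2 RPM, in which the authors wrote 0 reads as 0.9 read. Taking each column's minimum as 0.9 read gave whole numbers for 100% of values (tolerance 2.0% of the reads), and with them the library sizes. A count of 0 passes by rule and large counts always fall within the tolerance, so this share bears only on small counts above 0. The other 89 value columns match no sample here and were left out. Hosts and introns came from GENCODE on NCBIM37, where all 32101 features matched by interval, strand and symbol.

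Reads were scaled by TMM (trimmed means of log ratios) over the tested features and tested as log2(RPM + 10) with limma 3.58.1 (R 4.3.3) and a mean-variance trend, in 1 fit over 12 libraries without covariates, with Benjamini-Hochberg adjustment at 0.05. Fold changes on this scale understate the changes of features with few reads. A second fit used each feature minus the summed Mir290 cluster. Features needed 111.3 RPM (10 reads at the median depth of 89885) in 2 libraries and 15 reads in all, which left 683. The script was tested on simulated data. Group levels are means ± SD, and summed-read ratios have exact conditional intervals. The members, lists and tests were chosen with earlier results of these data known. All 6 members, their hosts and neighbours, the 3 most correlated features of each tested member, a set of reference miRNAs and the pathway genes were named by rule. Rnasen (Drosha) and Mir199b were not found by these symbols in the table. Beside the 6 erythroid markers given, 1 more was listed and is not reported here.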

Additional observations from a re-analysis of the deposited data

Results flagged for a closer look

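By Dixon's test of the gap to the nearest other library, 4 values stood apart within their group, of 10 tested sets of a member and a group with 4 or more libraries and any read. Chance flags about 1 in 20 groups of continuous values, a rate that does not hold here, because a single read among libraries at 0 always meets the test. Each of the 4 is a single read. Mir484 in Dicer/Dnmt1 KO 2A had 15.77 RPM and Mir451 in the same library had 15.77 RPM, beside 0 reads in the other 3 libraries of the group. Mir451 in WT 2A had 61.95 RPM, in a library with 16142 reads. Mir1224 in WT 3B had 6.948 RPM, beside 0 reads in the other 5 WT libraries.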

How the results depend on the processing

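In Dicer/Dnmt1 KO against WT and against Dnmt1 KO, Mir320 and Mir484 kept their direction and call under all 28 and 27 alternatives run, with Mir320 between -5.88 and -2.67 and between -6.81 and -3.50, and Mir484 between -5.65 and -1.49 and between -7.66 and -3.00. The lowest and highest came from pseudocounts of 1 and 50 RPM, and leaving out each library kept the count of members called at 2. In Dnmt1 KO against WT the count was 0, and it was 1 with a pseudocount of 50 RPM, with voom weights, without E14 2 and without WT 2B (0 to 1 over the 12 libraries left out in turn).

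Relative to the Mir290 cluster the count in Dicer/Dnmt1 KO against WT was 1. It was 2 with the cluster from Mir17 to Mir92-1 as reference, with a pseudocount of 50 RPM and, added after the data were seen, without Dicer/Dnmt1 KO culture 1. It was 0 with all other Mir features as reference, with a pseudocount of 1 RPM and with A and B summed, and 5 of 6 without a filter (where 14164 of all 14232 features were called), and 1 to 2 over the libraries left out (2 without Dicer/Dnmt1 KO 1A). Against Dnmt1 KO the count was 0, but 2 with a pseudocount of 50 RPM, 4 of 6 without a filter (14111 of 14232 features called) and 1 without Dicer/Dnmt1 KO culture 1. It stayed 0 with each library left out, as it did in Dnmt1 KO against WT.

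In Dicer/Dnmt1 KO against WT, Mir320 relative to the cluster was -0.71 with all other Mir features as reference and -0.76 with a pseudocount of 1 RPM, and Mir484 was -0.53 with the latter. Against Dnmt1 KO, Mir320 was -0.96 and -1.30 and Mir484 was -0.995 and -2.16 under the same settings, and Mir320 was -0.16 without 2A and -0.054 without 2B (-0.16 to 1.08 over the libraries left out). Mir877 in Dicer/Dnmt1 KO against Dnmt1 KO was 0.021 with library reads alone and 0.056 without Dnmt1 KO A (-1.32 to 0.056 over the libraries left out). The cause was not tested beyond the pseudocount, which sets where a count of 0 lies.

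Numbers and letters in the titles repeat between groups. Of 4 pairs sharing both, 1 had a correlation of deviations over 0.1 (range -0.29 to 0.11). Of 22 pairs sharing at least the letter, 6 did (range -0.42 to 0.38). So few pairs of shallow libraries cannot show whether libraries with the same number or letter were prepared together. With the letter as a replicate block, or the number and letter as a replicate block, the count in Dicer/Dnmt1 KO against WT stayed 2, and the letter block changed no other count. Library scaling alone moved the median fold change of all features from -0.09 to 0.61 in Dicer/Dnmt1 KO against WT.
The fits of Mir877 without a filter, their alternatives and the scaling over all features were also added after the data were seen.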
